A study of Mus musculus with 6 samples.

Results

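The nuclear genes of oxidative phosphorylation were taken by name from 55487 Ensembl gene identifiers measured in mouse naive CD4+ T cells, the helper-lineage T cells that have not yet met their antigen. A gene was a member if it was protein-coding and its symbol began with Nduf followed by a, b, c, s or v, with Uqcr, with Cox and a digit from 4 to 8, or with Atp5, or was Sdha, Sdhb, Sdhc, Sdhd, Cyc1 or Cycs. Of 109 identifiers that matched by name, 13 were pseudogenes or noncoding and were left out, which gave 96 members. The name rule also takes in 8 assembly factors of complex I (Ndufaf1 to Ndufaf8) that help to build the complex without being part of it, and misses subunits that carry other names. Cells were taken directly from the spleen (3 libraries) or from the mesenteric lymph node, mLN, which drains the gut (3 libraries). All mice were WT C57BL6/J without treatment, and tissue is the sole difference that the labels give. The labels do not give the age or sex of the mice, how naive cells were purified, or if each replicate is a mouse of its own. The p-values therefore rest on the scatter of these libraries alone, and that scatter may be technical.

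Oxidative phosphorylation takes place in the inner mitochondrial membrane. Complex I (NADH dehydrogenase) and complex II (succinate dehydrogenase) pass electrons to ubiquinone, complex III passes them on to cytochrome c, and complex IV (cytochrome c oxidase) passes them to oxygen. Complexes I, III and IV pump protons, and complex V (ATP synthase) uses the proton gradient to make ATP. Most subunits are encoded in the nucleus, and a small set of core subunits is encoded in mitochondrial DNA. Resting naive T cells draw most of their ATP from this pathway.

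The deposited expected counts summed to between 13205499 and 20054205 per library, and the floor of 3 counts was worth 0.15 to 0.227 CPM (counts scaled to the size of the library), a limit that covers counting error alone. Defining markers of the labelled cells were present in every library. Cd3d was at 387 to 401 CPM in the spleen and 273 to 284 CPM in the mLN, Cd4 was at 879 to 962 CPM in both, and all 7 genes of the naive T cell list were detected in both tissues. Markers of other cells moved with tissue. The summed level of 10 neutrophil genes was 33.8 to 39.9 CPM in the spleen and 0.225 to 1.39 CPM in the mLN, and 12 monocyte and macrophage genes summed to 43.6 to 46.1 CPM and 3.38 to 5.11 CPM. Corresponding sums were 35.9 to 42.7 CPM and 12.3 to 20.8 CPM for 10 B cell genes, and at most 0.966 CPM for 8 red cell and platelet genes. For 7 dendritic cell genes they were 35.1 to 39.9 CPM and 16.5 to 23.8 CPM. Most of that sum was Cst3, at a mean of 30.8 CPM in the spleen and 19.2 CPM in the mLN. Called lower in the mLN were 6 of 6 tested neutrophil genes and 7 of 8 tested genes of monocytes and macrophages. So were 6 of 10 tested B cell genes and 3 of 4 tested dendritic cell genes, beside 13.5% of all genes tested. Genes near 0 in the mLN, such as Camp (mean 0.037 CPM) and Flt3 (0 CPM), passed the filter on low counts through their spleen libraries. For such genes a lower call was nearly fixed in advance, so these calls add little to the sums above. Of 6 natural killer genes, Prf1, which other cytotoxic cells also express, was at 41.4 to 47.0 CPM in the spleen and 55.7 to 66.7 CPM in the mLN. The other 5 were at 1.36 CPM or less in every library, with Ncr1 at 0 in 2 of 3 mLN libraries and Klra8 at 0 in all 3. CD8 T cell genes summed to 17.96 to 20.4 CPM and 13.8 to 23.5 CPM, regulatory T cell genes to 46.1 to 52.5 CPM and 31.3 to 44.1 CPM, and effector and memory genes to 109.7 to 123 CPM and 77.3 to 85.3 CPM, in spleen and mLN respectively. Most of the regulatory T cell sum was Tnfrsf18, at a mean of 40.4 CPM in the spleen and 30.2 CPM in the mLN. The part of all these other cells in the results below was not tested. In bulk samples fewer cells of a type and less RNA per cell cannot be told apart.

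The comparison of mLN with spleen cells asks how the respiratory chain messages of naive CD4+ T cells differ with the organ they were taken from. Of the 96 members, 87 passed the filter on low counts and were tested. In the mLN, 47 were lower and 2 were higher by edgeR's quasi-likelihood test (adjusted p under 0.05), and the median log2 fold change of the 87 was -0.38, against -0.01 over all 12486 genes tested. Over all genes, 13.5% were called lower and 16.1% higher. In 62 of the 87 all mLN libraries lay below all spleen libraries in CPM, which held for 20.3% of all genes tested. The changes were small, between -0.82 and 0.29 on the log2 scale, and 34 of the 47 were still called at a threshold of 0.01. When each library was left out in turn, between 39 and 48 members were lower, and 33 were lower in every one of these fits.

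**Figure D1:**
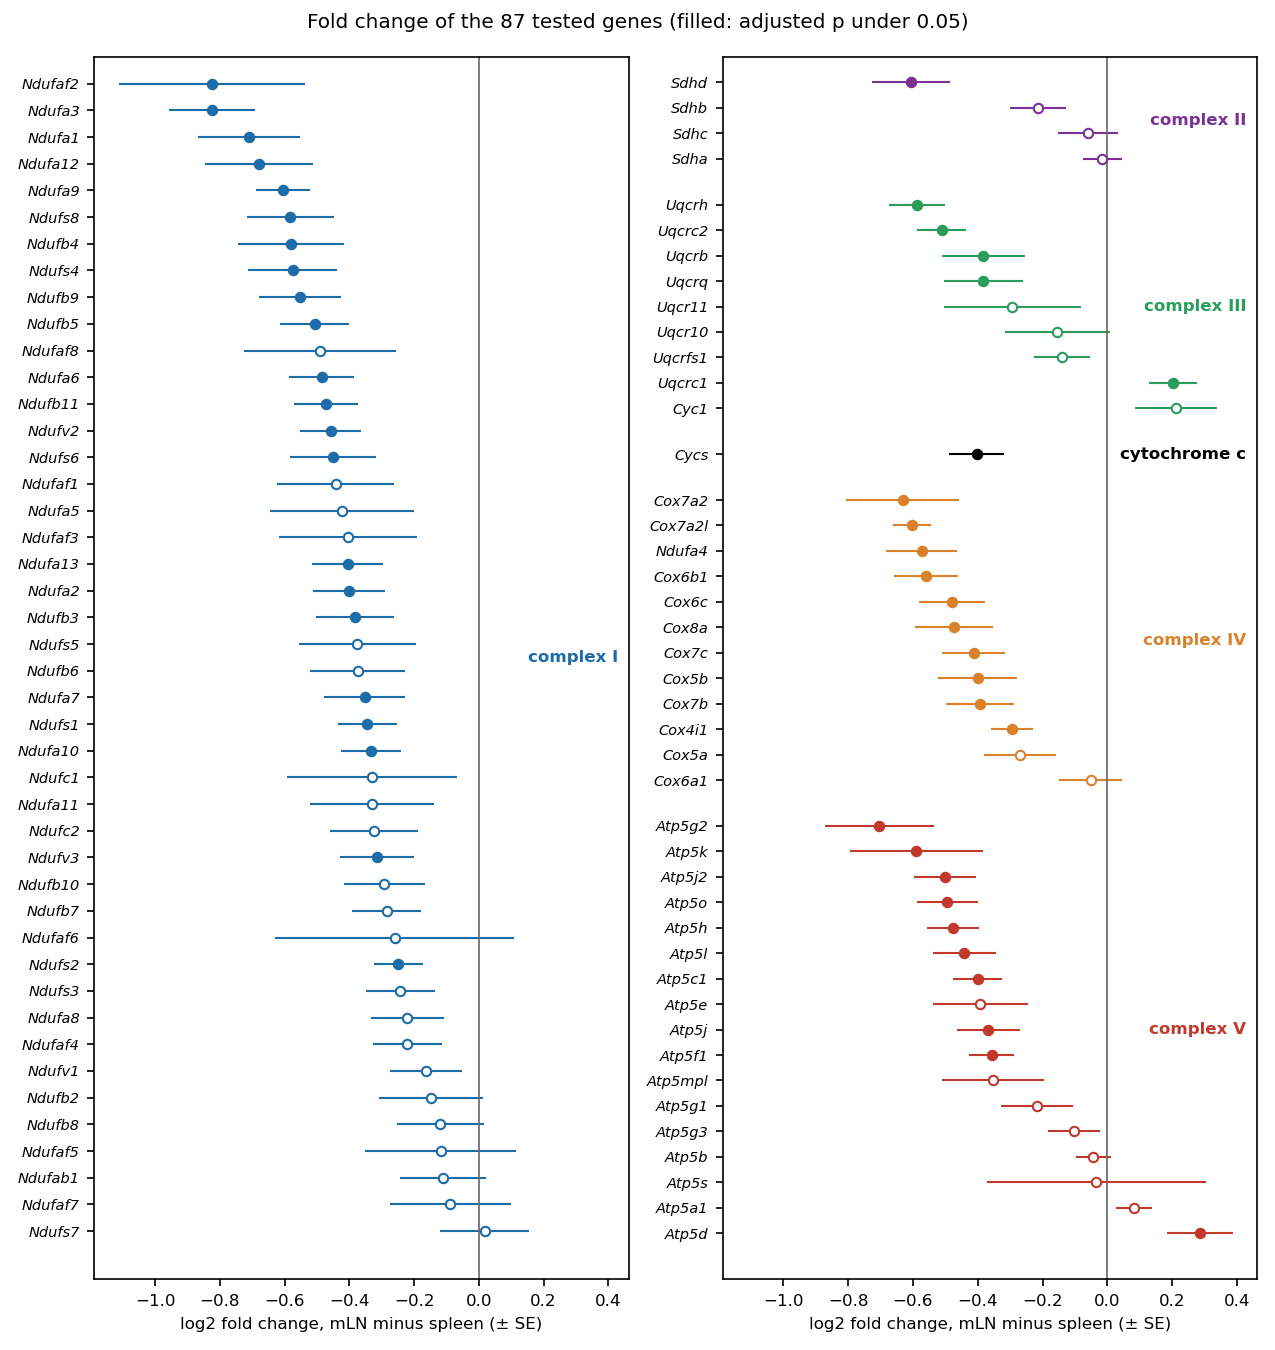
Log2 fold change, mLN minus spleen, of the 87 tested genes by complex (points, edgeR; bars, standard error; filled points, adjusted p under 0.05). Most points lie left of 0 in every complex, and the 2 filled points right of 0 are Uqcrc1 and Atp5d.

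By complex, lower calls were made for 22 of 44 tested genes of complex I, 1 of 4 of complex II, 4 of 9 of complex III, 10 of 12 of complex IV, 9 of 17 of complex V, and cytochrome c itself. The median log2 fold changes were -0.37, -0.14, -0.29, -0.44 and -0.37 for complexes I to V. Levels per transcript length, in TPM (scaled by transcript length and library size), also differed between complexes: the median over tested genes in the spleen was 77.8 TPM for complex I, 80.6 for II, 125 for III, 233 for IV and 238 for V. Over all tested members this median was 105 TPM, and over all genes tested 15.7 TPM. The shares of genes called were not matched for level. Of the tested members, the lowest in the spleen was Atp5s at 5.80 TPM ± 1.91 (SD, n = 3). The highest there was Atp5b at 678 ± 124 TPM.

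In complex I, 4 of 7 core subunits, which carry the flavin and the iron-sulfur clusters, were lower in the mLN, as were 17 of 29 accessory subunits and 1 of 8 assembly factors, Ndufaf2. Ndufa9 (chr6:126821721-126849136 on GRCm38, minus strand), an accessory subunit near the ubiquinone site, was at 85.4, 83.6 and 82.9 CPM in spleen replicates 1 to 3 and at 58.4, 53.4 and 53.8 CPM in the mLN. The groups did not overlap, and the log2 fold change was -0.61 (SE 0.08, edgeR adjusted p = 1.19e-05). Ndufa3, a small accessory subunit of the membrane arm, was at 31.3, 28.7 and 33.1 CPM in the spleen and at 16.3, 16.2 and 19.9 CPM in the mLN, a log2 fold change of -0.82 (SE 0.13, edgeR adjusted p = 7.15e-05). Ndufa6, another accessory subunit, was at 56.6, 54.3 and 55.4 CPM in the spleen and at 37.1, 37.6 and 43.8 CPM in the mLN. Its mLN values were each below the lowest spleen value. Ndufb11, of the membrane arm, fell from 59.4, 59.8 and 62.4 CPM to 42.2, 39.5 and 48.9 CPM, and Ndufv2, a core subunit with an iron-sulfur cluster, from 53.5, 60.2 and 56.8 CPM to 40.5, 42.8 and 40.9 CPM. These genes had log2 fold changes between -0.49 and -0.46.

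Other genes of complex I gave no call. Ndufs7, the core subunit that holds the terminal iron-sulfur cluster, was at 30.5, 30.8 and 36.3 CPM in the spleen and at 31.5, 26.6 and 40.4 CPM in the mLN, and its groups overlapped (log2 fold change 0.02, SE 0.14). The assembly factors Ndufaf5, Ndufaf6 and Ndufaf7 were low, at 2.10 to 12.3 CPM over all libraries, and also overlapped, with log2 fold changes of -0.12, -0.26 and -0.09. Their standard errors were 0.23, 0.37 and 0.19, wider than those of the called subunits named above, and a difference of the median size over members may not be detectable at this depth.

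Complex II is wholly encoded in the nucleus and also belongs to the tricarboxylic acid cycle. Sdha, its flavin subunit, was at 293, 318 and 293 CPM in the spleen and at 308, 295 and 293 CPM in the mLN. The groups overlapped, and the log2 fold change was -0.01 with an SE of 0.06, the smallest difference of the complex. Sdhd, a membrane anchor, was at 54.7, 59.1 and 45.9 CPM in the spleen and at 34.5, 40.4 and 30.4 CPM in the mLN. It was the called gene of the complex, with a log2 fold change of -0.61 (SE 0.12, edgeR adjusted p = 0.00053). The iron-sulfur subunit Sdhb had a log2 fold change of -0.21 (SE 0.09, edgeR adjusted p = 0.0693), and the other anchor Sdhc one of -0.06 (SE 0.09). The pair of anchors thus had unlike values, and the difference between them was not tested.

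In complex III, Uqcrh, the hinge subunit, was at 116, 130.2 and 118 CPM in the spleen and at 89.6, 74.3 and 78.8 CPM in the mLN. Its log2 fold change was -0.59 (SE 0.09, edgeR adjusted p = 2.25e-05). Uqcrc2, a matrix-side core protein, fell from 179, 183 and 161 CPM to 122, 129 and 115 CPM (log2 fold change -0.51). Its partner Uqcrc1 went the other way: it was at 108, 102 and 106 CPM in the spleen and at 121, 117 and 125 CPM in the mLN, and all mLN libraries lay above all spleen libraries. The log2 fold change of Uqcrc1 was 0.20 (SE 0.07, edgeR adjusted p = 0.0447), but the call was lost whichever library was left out, with adjusted p from 0.068 to 0.206. The small subunits Uqcrq and Uqcrb, both with a log2 fold change of -0.38, were called lower but lost the call when spleen replicate 2 or either of mLN replicates 1 and 2 was left out (adjusted p 0.055, 0.085 and 0.09 for Uqcrq, and 0.098, 0.071 and 0.072 for Uqcrb). Uqcrb also lost it without spleen replicate 1 (adjusted p 0.129). The catalytic subunits Cyc1, the haem-bearing cytochrome, and Uqcrfs1, the Rieske iron-sulfur protein, had log2 fold changes of 0.21 (SE 0.13) and -0.14 (SE 0.09). The groups of both overlapped, as did those of the small subunits Uqcr10 (log2 fold change -0.15, SE 0.16) and Uqcr11 (-0.29, SE 0.21), and none of these was called. Cycs, the mobile cytochrome c, was at 90.1, 84.0 and 77.6 CPM in the spleen and at 62.8, 64.5 and 63.1 CPM in the mLN, a log2 fold change of -0.40 (edgeR adjusted p = 0.00101).

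**Figure D2:**
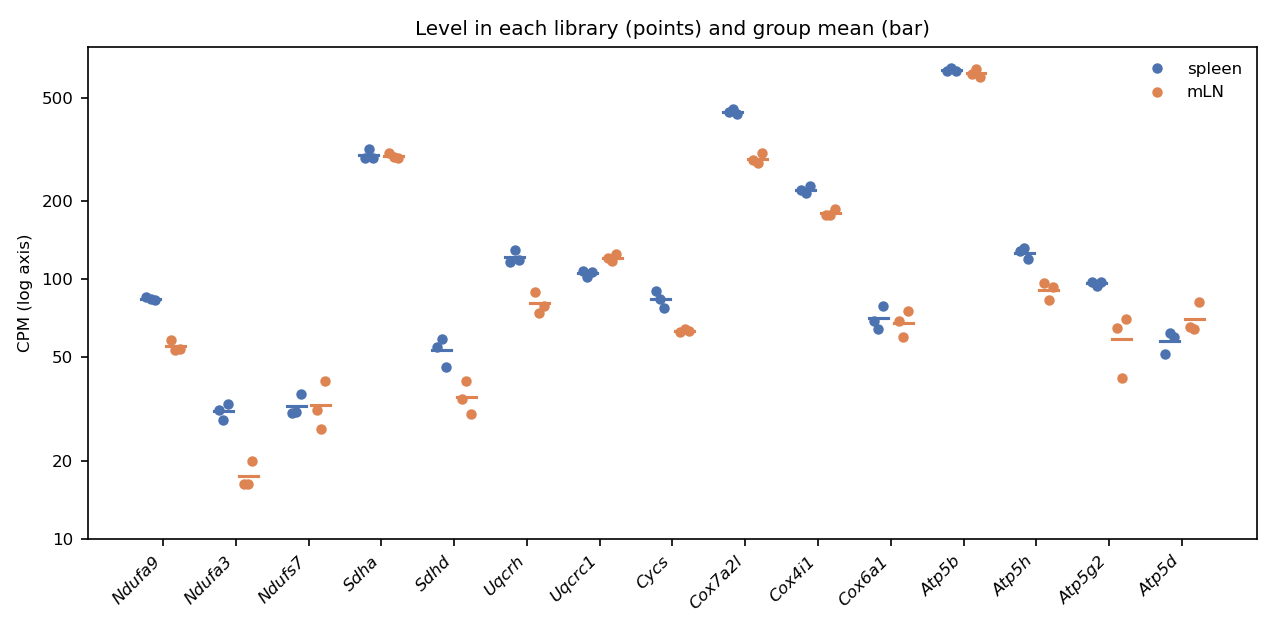
CPM of 15 genes in each of the 3 spleen and 3 mLN libraries (points; bars, group mean) on a log axis. Cox7a2l, Ndufa9 and Uqcrh show groups that do not overlap, and Sdha and Atp5b show groups that do.

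Of 12 tested genes of complex IV, 10 were lower in counts, but 1 with the length trend removed and 2 with length and GC trends both removed. Cox7a2l (chr17:83501918-83517330, minus strand) is known as a factor for joining complexes III and IV into supercomplexes. Neither its protein nor supercomplexes were measured in these mice. Cox7a2l was at 440.1, 454 and 434 CPM in the spleen and at 287, 279.6 and 307 CPM in the mLN. The log2 fold change was -0.60 with an SE of 0.06 (edgeR adjusted p = 1.53e-07), the smallest p of the 87. Cox4i1, the widely expressed form of the largest nuclear subunit, was at 220.5, 215 and 228 CPM in the spleen and at 177, 177 and 187 CPM in the mLN (log2 fold change -0.29, SE 0.06, edgeR adjusted p = 0.00124). Cox6b1, Ndufa4 (first named as a subunit of complex I) and Cox6c had log2 fold changes of -0.56, -0.57 and -0.48. Cox8a, Cox7b, Cox7a2 and Cox5b had -0.47, -0.39, -0.63 and -0.40, of which Cox7a2 lost its call without spleen replicate 2 (adjusted p 0.052) and Cox5b without mLN replicate 1 or 2 (adjusted p 0.073 and 0.098). Cox5a (-0.27, edgeR adjusted p = 0.0743) was not called, but of the fits that left out 1 library it was called lower in the one without mLN replicate 3. Cox6a1 overlapped between the groups, at 69.1, 64.2 and 78.8 CPM in the spleen and 69.1, 60.1 and 75.1 CPM in the mLN.

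The isoforms of complex IV known from muscle, lung, testis and other tissues were at or near 0. No count was seen in any library for Cox4i2, Cox7b2, Cox8b, Cox8c and Ndufa4l2, a paralog of Ndufa4. Cox7a1 had 3 counts in 1 spleen library and 0 elsewhere. Cox6a2 had at most 9 counts and Cox6b2 at most 10. In TPM, the mean spleen level was 564 for Cox4i1, 273 for Cox6a1, 113 for Cox7a2, 652 for Cox7a2l and 234 for Cox8a, against 0.597 for Cox6a2 and 0.583 for Cox7a1. With a 2nd identifier of Atp5o, which had no counts, these are the 9 members that failed the filter.

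In complex V, of the 5 subunits of its catalytic head and central stalk, 1 was lower and 1 higher, with a median log2 fold change of -0.04, while 8 of 11 tested subunits of the membrane part and the outer stalk were lower, with a median of -0.44. The difference between these parts was not tested. With the length trend removed 1 of 5 and 2 of 11 were lower, with medians of 0.08 and -0.17. Atp5b, the catalytic beta subunit, was at 637, 653 and 632 CPM in the spleen and at 619, 644 and 602 CPM in the mLN. Atp5a1, the alpha subunit, was at 490.4, 498 and 502 CPM in the spleen and at 509, 524 and 545 CPM in the mLN. Neither was called (log2 fold change -0.04, SE 0.05, and 0.08, SE 0.06), although the Atp5a1 groups did not overlap. Atp5d (chr10:80138632-80145818, plus strand), the delta subunit, was at 51.8, 62.3 and 59.7 CPM in the spleen and at 65.5, 64.3 and 81.8 CPM in the mLN. Its log2 fold change was 0.29 (SE 0.10, edgeR adjusted p = 0.039), and the call was lost without any of the spleen replicates 1, 2 and 3 or without mLN replicate 3 (adjusted p 0.216, 0.057, 0.053 and 0.291). Atp5c1, the gamma subunit of the central stalk, fell from 151, 132 and 136 CPM to 106, 107 and 104 CPM.

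Among the membrane and outer stalk subunits, Atp5h fell from 129, 132 and 119.8 CPM to 96.6, 83.5 and 93.0 CPM. Atp5f1, Atp5o and Atp5j2 had log2 fold changes of -0.36, -0.49 and -0.50, and in each all mLN libraries lay below all spleen libraries. The proton-carrying ring is made from 3 genes with the same mature protein. Atp5g2 was at 97.7, 94.5 and 98.0 CPM in the spleen and at 65.1, 41.7 and 70.6 CPM in the mLN (log2 fold change -0.70, SE 0.17, edgeR adjusted p = 0.0127), and lost the call without spleen replicate 3 (adjusted p 0.085). Atp5g3 was at 93.1, 97.6 and 89.5 CPM in the spleen and at 89.8, 86.5 and 84.6 CPM in the mLN. Atp5g1 was at 36.0, 34.3 and 33.8 CPM and at 29.5, 28.7 and 31.3 CPM. Neither Atp5g3 nor Atp5g1 was called (log2 fold changes -0.10 and -0.22), and the difference between the 3 ring genes was not tested. Per length, the ring genes in the spleen were at 91.9 TPM ± 7.11 for Atp5g1, 248 ± 8.16 for Atp5g2 and 239 ± 5.37 for Atp5g3 (SD, n = 3), so that Atp5g2 and Atp5g3 did not differ beyond the spread between libraries.

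NRF1 and ETS-family factors such as GABP are known regulators of respiratory chain genes, and short matches to their motifs are common near the starts of such genes. RefSeq promoter windows (GRCm38.p6, 250 bases before to 50 bases after the start) were matched for 77 members. The letters GCGCATGC, the core of the palindromic NRF1 motif, were found on either strand in 13 of the 77 (16.9%) and in 3.05% of the 27025 genes with a window. Of these 13, 5 were lower in the mLN, 1 was higher and 7 were not called, beside 54.0% of all tested members lower. CCGGAAG, an ETS core, was found in 18 members (23.4%, against 9.93% of all genes), of which 9 were lower, and AAGATGGC, of YY1, in 11 (14.3%, against 3.19%), of which 7 were lower. No difference in calls between members with and without a motif was tested. A match is a run of letters and not a measured site. The stretches with NRF1 letters before the starts of Ndufa6 (chr15:82354327-82354414, minus strand), Cycs (chr6:50566582-50566669, minus strand) and Cox6a1 (chr5:115349071-115349160, minus strand) are shown because they carry alike letters in genes with unlike calls, the match in capitals and read 5′ to 3′ along the gene.
Ndufa6: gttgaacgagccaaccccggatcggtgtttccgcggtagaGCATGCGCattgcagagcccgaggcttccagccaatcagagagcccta
Cycs: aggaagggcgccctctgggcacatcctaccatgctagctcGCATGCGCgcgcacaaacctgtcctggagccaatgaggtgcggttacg
Cox6a1: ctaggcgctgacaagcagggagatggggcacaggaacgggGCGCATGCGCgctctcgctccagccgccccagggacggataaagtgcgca
Ndufa6 and Cycs fell in the mLN, and Cox6a1 had a log2 fold change of -0.05 with an SE of 0.10. The match started 83, 60 and 162 bases before the start.

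Members were short, and short genes were lower in the mLN as a class. The median deposited transcript length was 733 nt for the tested members and 2330 nt for all genes tested. Up to 1000 nt, 35 of 60 members were lower, against 29.8% of all genes of that length. The medians were -0.39 for members and -0.36 for all 1421 genes. The median spleen level of this class was 120 TPM for members and 27.9 TPM for all genes. Whether level moved the shares called was not tested. From 1000 to 2000 nt, 10 of 22 members were lower, against 18.6% of all genes, with medians of -0.29 and -0.13. From 2000 to 6000 nt, 2 of 5 members were lower, against 8.32%, with medians of -0.22 and 0.08. No member was longer. Across genes, Spearman's rho of fold change with length was 0.33 over the 87 members and 0.37 over 12478 genes, points that share libraries and are not independent replicates.

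**Figure D3:**
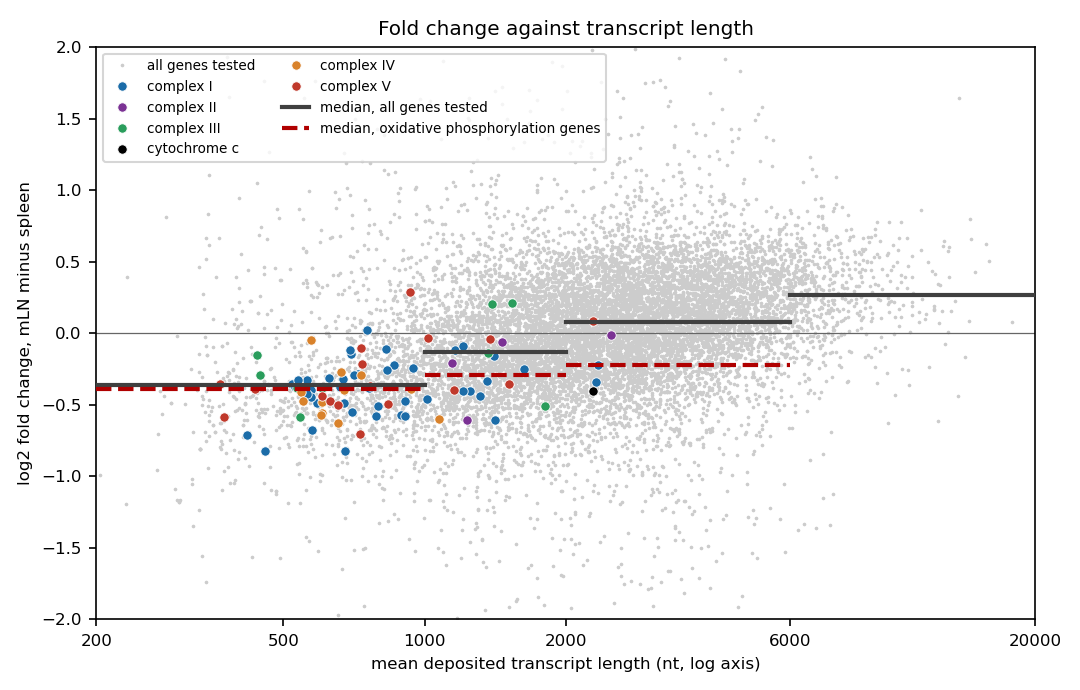
Log2 fold change against mean deposited transcript length (log axis), with all genes tested in grey, oxidative phosphorylation genes coloured by complex, and class medians as lines (genes beyond 2 log2 units in either direction are not drawn). The 2 median lines nearly meet up to 1000 nt, at -0.39 and -0.36, and part above it.

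Transcript GC content moved with fold change too, with rho 0.17 over members and 0.28 over all genes. Among genes of up to 1000 nt, members with over 55% GC had 9 of 20 lower and a median of -0.31, beside 23.6% and -0.25 for all genes of that class. Members with 50 to 55% GC had 14 of 20 lower and a median of -0.47, beside 33.9% and -0.37. Members with 45 to 50% GC had 6 of 11 lower and a median of -0.41, beside 32.0% and -0.40, and those with at most 45% had 6 of 9 lower and a median of -0.38, beside 29.8% and -0.51. Among short genes the member median was thus below that of all genes in 3 of these 4 GC classes and above it in 1.

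The counts were fitted again with the trend on length removed from each library. Then 11 of the 87 tested members were lower, a share close to the 11.8% of all genes, and 3 were higher, against 11.5%. The member median was -0.10, and that of all genes tested -0.02. The 11 were Ndufa9, Ndufa3, Ndufs1, Sdhd, Uqcrh, Uqcrc2, Cycs, Cox7a2l, Atp5c1, Atp5f1 and Atp5g2, and the 3 were Uqcrc1, Cox6a1 and Atp5d. With length and GC trends both removed, 14 were lower (background 9.96%) and 3 higher (background 9.79%), with a median of -0.09. Atp5d kept its higher call there, joined by Atp5g3 and Atp5b, while Uqcrc1 lost it (log2 fold change 0.16, edgeR adjusted p = 0.089). Lower calls under this double correction covered 6 of 44 genes in complex I, 1 of 4 in II, 2 of 9 in III, 2 of 12 in IV and 3 of 17 in V. Complex I was the nearest to the background share, and complexes II and III rest on few genes.

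On the scale of log2(TPM + 1), tested with limma, 7 members were lower and 4 higher, where 3.08% of all genes were lower and 22.2% higher. The median of all genes moved to 0.21 on that scale and that of members to -0.09. The 7 were Ndufa9, Ndufa1, Uqcrh, Uqcrq, Cox7a2l, Cox6b1 and Cox6c, and the 4 were Uqcrc1, Cyc1, Atp5d and Atp5a1. Cox7a2l was at 650.0, 663 and 641 TPM in the spleen and at 511, 513 and 539 TPM in the mLN, lower on both scales. Atp5a1 was at 284, 279 and 295 TPM in the spleen and at 375, 378 and 396 TPM in the mLN, a difference of 0.42 in log2 TPM (limma adjusted p = 0.0016) where counts gave 0.08. With each library centred on its median over the genes tested, 35 members were lower (background 7.69%) and no call was left among the higher (limma, 2 at an unadjusted p under 0.05, background 6.45%).

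**Figure D4:**
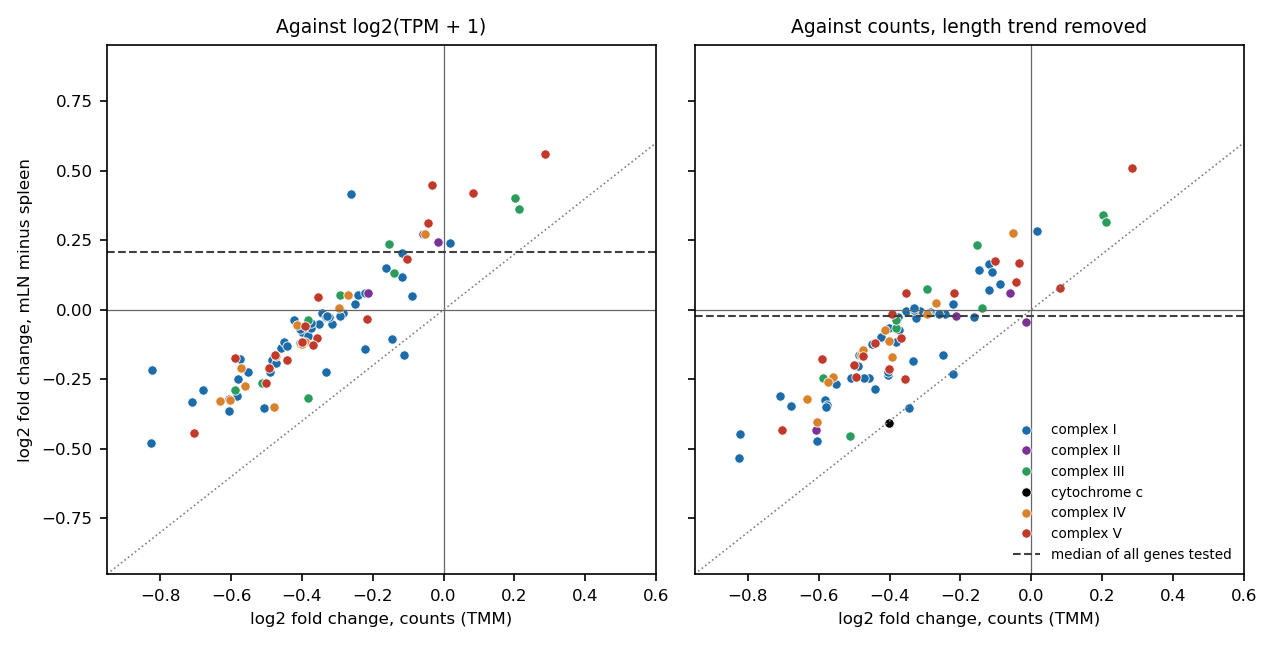
Log2 fold change of the 87 genes in counts (x axis) against log2(TPM + 1) (left) and against counts with the length trend removed (right); the dotted line marks equal values and the dashed line the median of all genes tested, 0.21 and -0.02. Nearly all points lie above the dotted line in both panels, and the genes keep much the same order.

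TPM divides by an effective length that was estimated anew in each library. The deposited length of 28 of the 87 tested members differed by over 1.1 times between libraries, and the largest ratio was 1.99, for Ndufaf6. The length given for Atp5b was 1591, 1465 and 1189 nt in the spleen and 1518, 1245 and 1265 nt in the mLN, and its TPM ran from 575 to 962 while its CPM ran from 602 to 653. Uqcrc1 ranged from 1212 to 1563 nt within the spleen alone. When TPM was recomputed with 1 fixed effective length per gene, 13 members were lower, against 3.99% of all genes, and 8 higher, against 33.2%, with Sdha, Sdhc, Atp5g3 and Atp5b added to the higher ones.

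Over all 24 settings that were run, 3 members were lower in each: Cox7a2l, Ndufa9 and Uqcrh. A total of 48 tested members had a log2 fold change below 0 in every setting. The 4 that were above 0 in every setting were Uqcrc1, Cyc1, Atp5d and Atp5a1, which were called higher in 10, 5, 16 and 4 settings.

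Summed per library, members made up 0.621% ± 0.008 of all counts in the spleen and 0.525% ± 0.015 in the mLN (SD, n = 3), and no mLN library reached the lowest spleen value. The share of complex IV went from 0.120% ± 0.001 to 0.0893% ± 0.0053 and that of complex I from 0.156% ± 0.002 to 0.123% ± 0.005. Complex III went from 0.0636% ± 0.0022 to 0.0554% ± 0.0020 and complex V from 0.226% ± 0.005 to 0.206% ± 0.004. Complex II was at 0.0472% ± 0.0022 and 0.0448% ± 0.0010, groups that overlapped. In TPM, the shares of complexes II and V were higher in the mLN, at 1.08 and 1.02 times the spleen value with groups that overlapped, and those of I, III and IV lower, at 0.932, 0.961 and 0.916 times.

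**Figure D5:**
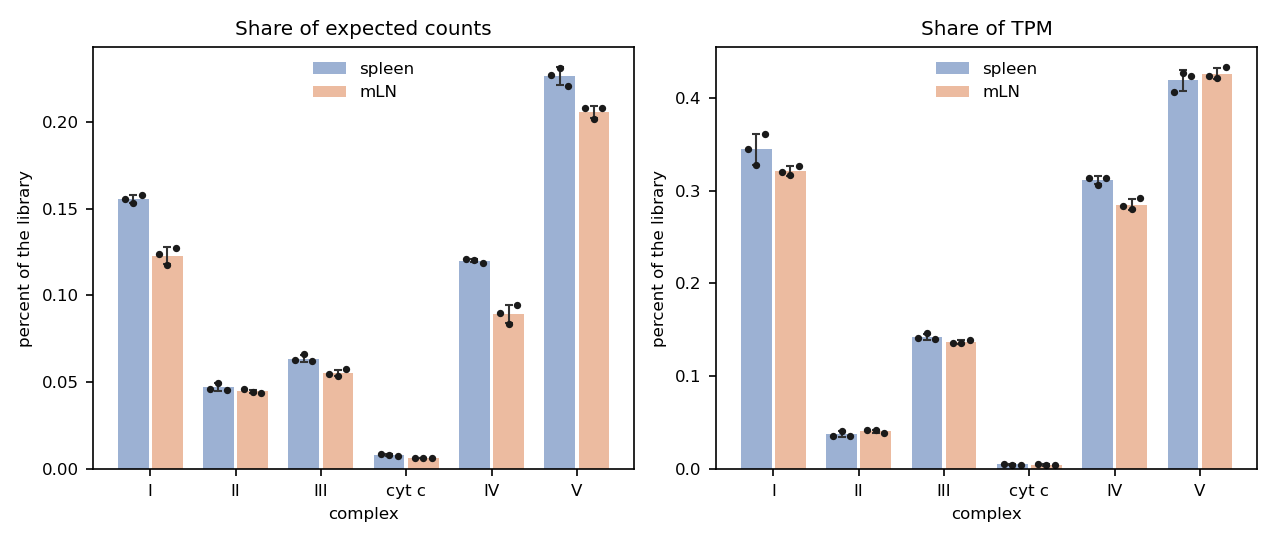
Share of each library taken by the genes of each complex, in expected counts (left) and in TPM (right): bars, mean of 3 libraries; error bars, SD; points, libraries. Complexes I and IV are lower in the mLN on both scales, and complex V is lower in counts and slightly higher in TPM.

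Messages from mitochondrial DNA, which encode the other subunits of complexes I, III, IV and V, were lower as well. Of 13, 10 were lower in the mLN, against 13.5% of all genes, with a median log2 fold change of -0.79. The summed level was 35664 to 39478 CPM in the spleen and 20220.2 to 23061 CPM in the mLN. The catalytic mt-Co2 of complex IV was at 4623, 4764 and 4420 CPM in the spleen and at 2474, 2616 and 2616 CPM in the mLN (log2 fold change -0.84, edgeR adjusted p = 6.63e-10). The complex I genes mt-Nd1 and mt-Nd5 both had a log2 fold change of -0.79. In log2 TPM 11 of the 13 were lower (background 3.08%), and 8 with length and GC trends removed (background 9.96%).

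Other lists of the pathway are to be read beside the 13.5% of all genes called lower and 16.1% called higher. Of assembly factors outside the name rule, 1 of 9 was lower for complex I (Tmem126b, log2 fold change -0.69), 1 of 4 for complex II (Sdhaf2, -0.43), 1 of 6 for complex III (Uqcc3, -0.41) and 6 of 23 for complex IV, among them Cox20 (-0.73), Cox17 (-0.51) and Surf1 (-0.51). Of the 3 for complex V, 0 were called by edgeR, DESeq2 or limma-voom, and 0 had an unadjusted edgeR p under 0.05 (log2 fold changes -0.13 to 0.17). In the tricarboxylic acid cycle and pyruvate dehydrogenase, 8 of 18 genes were lower, with Sucla2 at -0.57 and Idh3g at -0.41, and 1 was higher, Ogdh at 0.32. Among carriers and channels of the mitochondrial membranes, 4 of 7 were lower, among them the ATP/ADP exchangers Slc25a5 (-0.53) and Slc25a4 (-0.50) and the channel Vdac3 (-0.46). The uncoupling protein Ucp2 was higher (0.22, edgeR adjusted p = 0.0188), a call that was lost without spleen replicate 1, spleen replicate 2 or mLN replicate 3. These counts also depended on the treatment of length. With the length trend removed (background 11.8%), 2 of 23 complex IV assembly factors, 5 of 18 cycle genes and 2 of 7 carriers and channels were lower. In log2 TPM by limma these became 0, 0 and 1 (background 3.08%), with 1, 3 and 2 higher (background 22.2%).

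Of 16 tested regulators of respiratory genes, 6 were higher and 2 lower in the mLN. Their median length was 2395 nt, and 22.2% of all genes of 2000 to 6000 nt were higher and 8.32% lower. The coactivator Pprc1 was at 75.8, 75.3 and 87.7 CPM in the spleen and at 130.4, 141 and 148 CPM in the mLN (log2 fold change 0.81, edgeR adjusted p = 3.24e-07). Hcfc1, a cofactor of GABP, had a log2 fold change of 0.62 and Polrmt, the mitochondrial RNA polymerase, one of 0.68. Of the factors whose motifs were searched, Nrf1 itself was not called (0.16, SE 0.09), nor was Gabpa (0.12, SE 0.09). Yy1 was higher (0.42, edgeR adjusted p = 7.55e-05), with 0.19 once the length trend was removed. The 2 lower genes were Tefm (-1.37, means 6.82 CPM in the spleen and 2.64 CPM in the mLN) and Slirp (-0.80, 10.6 and 6.07 CPM). With length and GC trends removed, 4 were higher (background 9.79%) and 2 lower (background 9.96%). In centred log2 TPM 2 were higher (background 6.45%) and 1 lower (background 7.69%).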

How the data were processed

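Polyadenylated RNA of 6 libraries was sequenced, 3 from spleen and 3 from mLN. The submitters' processing notes name STAR, RSEM and the mm10 build. Tool versions, strandedness in counting and the release of the annotation were not given in the sources used here. Per the file headers, the authors deposited expected counts, TPM, FPKM and transcript lengths per gene. FPKM values deposited by the authors were looked at for their sums only.

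Expected counts were rounded, filtered with filterByExpr, scaled by TMM and tested with edgeR 4.0.16 (quasi-likelihood, robust; R 4.3.3), with Benjamini-Hochberg adjustment over 12486 genes and a threshold of 0.05. Fold changes are mLN over spleen. Deposited TPM were tested as log2(TPM + 1) with limma 3.58.1, and a fold change on that scale understates the change of low genes. DESeq2 1.42.0, limma-voom, other scalings, filters of 50 counts in 3 libraries or none, a pseudocount of 0.1, a threshold of 0.01, a replicate block, removal of the trend on length (loess, span 0.3) and leaving out each library were alternatives. Removal of trends on GC, alone or with length, and TPM with fixed lengths were chosen after seeing the data. Gene positions and transcript GC came from GENCODE vM21 (GRCm38).

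Members and lists were chosen with earlier results of these data known. Named were, in complexes I, III, IV and V, up to 5 called members with the smallest p and 3 with the largest, all of complex II, Cycs, members called higher, isoform sets, the highest and lowest TPM, members that failed the filter, and up to 3 called genes per list. Other genes named were chosen after their values were seen. Replicates differed by more than sampling noise (chi-square per degree of freedom from 5.60 to 11.9). On simulated data with 12486 genes, the test recovered 28% of 50 genes changed by a fold of 1.3 and 52% of those changed by 1.5, while a fold of 2 gave 74% and a fold of 4 gave 84%. The changed genes were drawn at random from all genes tested, whose median spleen level was 15.7 TPM, against 105 TPM for members. Recovery at the level of members was not measured.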

Additional observations from a re-analysis of the deposited data

Results flagged for a closer look

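Of the 13 name matches that were left out as not protein-coding, 2 had counts well above the floor in every library. Ndufb1-ps, annotated as a noncoding RNA from a bidirectional promoter, had 137, 127 and 192 counts in the spleen and 101, 76 and 116 in the mLN, so its lowest count was 76.0. It was lower in the mLN (log2 fold change -0.71, SE 0.23, edgeR adjusted p = 0.0266). Ndufb4c, a processed pseudogene, had a lowest expected count of 59.45 and a log2 fold change of -0.44 (SE 0.25, edgeR adjusted p = 0.203). Whether Ndufb4c shares reads with the member Ndufb4 was not tested.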

How the results depend on the processing

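Cox7a2l, Ndufa9 and Uqcrh were called lower in all 24 settings, while most counts of calls depended on the treatment of length. Of the 47 members lower in counts, 7 were lower in log2 TPM with either pseudocount, 13 with 1 fixed effective length per gene, 11 with the length trend removed and 14 with length and GC trends removed. The 22 lower genes of complex I became 2 in log2 TPM with either pseudocount, 14 after centring, 7 with fixed lengths, 3 with the length trend removed and 6 with both trends removed. In complex II, 1 became 2 with upper-quartile factors, the stricter filter, the replicate block or the GC trend removed, and 0 in log2 TPM with either pseudocount or fixed lengths (limma, 1 at an unadjusted p under 0.05 in log2 TPM). In complex III, 4 became 2 in log2 TPM with either pseudocount, at a threshold of 0.01, and with the length trend or both trends removed, and 1 with fixed lengths. In complex IV, 10 became 3 on the 3 uncentred TPM scales, 1 with the length trend removed and 2 with both removed. In complex V, 9 became 0 in log2 TPM with either pseudocount (limma, 3 at an unadjusted p under 0.05 with pseudocount 1), 2 with fixed lengths and 3 with the length trend or both trends removed. The cause of the TPM differences was not tested.

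The 2 higher members became 0 with upper-quartile factors (edgeR, 2 at an unadjusted p under 0.05), after centring (limma, also 2) and at a threshold of 0.01. They became 1 without a filter, with the stricter filter and when mitochondrial, rRNA and ribosomal protein genes were left out, 4 in log2 TPM with either pseudocount and 8 with fixed lengths. Over all genes, the 2010 higher became 805 after centring, 4145 with fixed lengths and 1221 with both trends removed, and the 1689 lower became 385 in log2 TPM, 388 with pseudocount 0.1, 498 with fixed lengths, 960 after centring and 1069 at a threshold of 0.01. By effective length, 5 members of 1000 to 2000 nt were lower in place of 10.

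Same-numbered spleen and mLN libraries had correlations of their deviations of 0.022, 0.0023 and 0.065, and those with unlike numbers -0.046 to 0.024. The labels name no pairing, and the numbers were not taken to pair the libraries. Whether libraries of the same number share an effect was not tested. With the replicate block, 57 members were lower, among them all 47, and 3 higher, with Ndufs7 at -0.00025. Over all 12486 genes tested, the block also raised the lower calls from 1689 to 2140 and the higher calls from 2010 to 2566. With the replicate block and the length trend removed, 22 members were lower and 7 higher, with 8 lower in complex I, 2 in III and 4 in IV. Over all genes, 2097 were lower and 2008 higher in the same fit. In that blocked fit the log2 fold changes above 0 were Atp5b 0.099, Atp5g1 0.060, Atp5g3 0.18, Atp5s 0.14, Cox5a 0.024, Cox6a1 0.28, Ndufaf5 0.049, Ndufaf7 0.091, Sdhc 0.063, Uqcr10 0.24, Uqcr11 0.066 and Uqcrfs1 0.0083.

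Without 1 library at a time, 1500 to 1970 genes were higher and 1324 to 1710 lower. Among members 0 to 1 were higher and 39 to 48 lower, with 18 to 21 lower in complex I, 1 in II, 2 to 4 in III, 9 to 11 in IV and 7 to 10 in V, 9 to 12 of 1000 to 2000 nt and 1 to 2 of 2000 to 6000 nt. The log2 ratios of shares ran from -0.26 to -0.22 for all members, -0.37 to -0.31 for complex I, -0.10 to -0.039 for II, -0.23 to -0.17 for III, -0.43 to -0.32 for cytochrome c, -0.47 to -0.38 for IV and -0.15 to -0.12 for V. From summed TPM these ratios were -0.053 for all members, -0.10 for I, 0.11 for II, -0.058 for III, -0.12 for cytochrome c, -0.13 for IV and 0.025 for V. As shares of nuclear protein-coding counts without ribosomal protein genes they were -0.34 for all, -0.44 for I, -0.17 for II, -0.30 for III, -0.53 for IV and -0.24 for V.

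Some named genes changed sign, among them Cox4i1, Uqcrb and Uqcrq, which were called lower in counts. In log2 TPM the values were Atp5b 0.31, Atp5g3 0.18, Atp5s 0.45, Cox4i1 0.0059, Cox5a 0.054, Cox6a1 0.27, Ndufaf5 0.12, Ndufaf6 0.42, Ndufaf7 0.049, Sdha 0.24, Sdhb 0.062, Sdhc 0.27, Uqcr10 0.24, Uqcr11 0.053 and Uqcrfs1 0.13. With pseudocount 0.1 they were Atp5b 0.31, Atp5g3 0.18, Atp5s 0.52, Cox4i1 0.0059, Cox5a 0.054, Cox6a1 0.27, Ndufaf5 0.12, Ndufaf6 0.45, Ndufaf7 0.050, Sdha 0.24, Sdhb 0.062, Sdhc 0.28, Uqcr10 0.24, Uqcr11 0.054 and Uqcrfs1 0.13. After centring they were Atp5b 0.067, Atp5s 0.20, Cox6a1 0.024, Ndufaf6 0.17, Ndufs7 -0.0071 and Sdhc 0.027. With fixed lengths they were Atp5b 0.24, Atp5g1 0.063, Atp5g3 0.18, Atp5s 0.18, Cox5a 0.0036, Cox6a1 0.23, Ndufaf5 0.13, Ndufaf6 0.0090, Ndufaf7 0.19, Sdha 0.27, Sdhb 0.068, Sdhc 0.22, Uqcr10 0.12 and Uqcrfs1 0.14. With the length trend removed they were Atp5b 0.10, Atp5g1 0.059, Atp5g3 0.18, Atp5s 0.17, Cox5a 0.026, Cox6a1 0.28, Ndufaf5 0.069, Ndufaf7 0.092, Sdhc 0.062, Uqcr10 0.23, Uqcr11 0.074 and Uqcrfs1 0.0057. With the GC trend removed they were Atp5b 0.12, Ndufs7 -0.19 and Sdha 0.039. With both removed they were Atp5b 0.25, Atp5g1 0.024, Atp5g3 0.22, Atp5s 0.12, Cox5a 0.099, Cox6a1 0.15, Ndufaf5 0.17, Ndufaf7 0.14, Sdha 0.0049, Sdhc 0.0060, Uqcr10 0.18, Uqcrb 0.068, Uqcrfs1 0.10 and Uqcrq 0.0086. Atp5s was at 0.013 with limma-voom, and Ndufs7 at -0.028 with upper-quartile factors and -0.0042 with the stricter filter. Leaving out 1 library at a time gave ranges across 0 for Atp5s (-0.33 to 0.16), Ndufs7 (-0.17 to 0.14), Ndufaf5 (-0.37 to 0.033), Sdha (-0.047 to 0.013) and Cox6a1 (-0.14 to 0.026). Atp5s, at 2.63 to 5.11 CPM, had a standard error of 0.34.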
